A study of Mus musculus with 6 samples.

Results

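The Bex and Armcx genes are a pair of small X-linked families, taken here as Bex1, Bex2, Bex4, Armcx1, Armcx2, Armcx3, Armcx4 and Armcx6. Every probe set annotated to one of these symbols alone was used, which gave 11 probe sets for 8 genes, of 18193 genes with such a probe set on the array. The genes were picked with their difference between the sample groups in view, so their differences are given as a description and carry no p-value. All 8 passed the limit on low values and are among the 10581 genes fitted.

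RNA was measured on Affymetrix mouse arrays after translating ribosome affinity purification (TRAP), which pulls tagged ribosomes and their mRNA out of a tissue lysate. All mice were BAC (bacterial artificial chromosome) transgenics of the line Slc6a4 JD60, on a mixed FVB and c57/bl6j background, adult at 6 to 12 weeks, of both sexes. Each sample pooled 5 mice and came from midbrain and brainstem with the cerebellum removed. Ribosome-bound RNA labelled as coming from serotonin neurons makes up the IP group (3 biological replicates), and what stayed unbound, labelled as total tissue, was measured for each replicate too (3 samples). The JD60 transgene is 1 line and no wild-type sample is part of the comparison. The groups differ in cell type and in ribosome binding together, and fewer cells of a type cannot be told apart from less RNA per cell.

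Values are log2 expression. The authors normalised each group by itself, so IP values were shifted by -0.23, the difference between groups over 18 biotinylated hybridisation controls. After that shift the median change of all tested genes, IP minus unbound, was -0.65. The serotonin transporter gene Slc6a4, from which the line takes its name, was at 14.33, 14.10 and 14.18 in IP and at 8.99, 9.13 and 9.04 in unbound RNA (a log2 change of 5.15 ± 0.09 SE, with a limma adjusted p = 3.73e-07). All 6 listed markers of serotonergic neurons were called higher in IP. All 6 of astrocytes, all 5 measured of oligodendrocytes, 3 of 4 of microglia and all 3 tested of endothelial cells were called lower. Of all tested genes, 10.4% were called higher and 41.1% lower. Some of the markers called lower were below the detection limit in IP and were tested through their unbound values alone. Their calls as lower were bound to that filter. The other microglial marker, Aif1, was called higher, tested through its IP values alone. Precision is limited by having 3 arrays a group.

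Bex proteins (brain expressed X-linked) are short, largely unstructured proteins known in neurons, where Bex1 and Bex3 bind the p75 neurotrophin receptor. Armcx proteins carry armadillo repeats, a helical protein-binding fold, and several are anchored in the outer mitochondrial membrane, where Armcx3 acts with the Miro and Trak adaptors that move mitochondria along axons. Both families lie near the Tceal and Gprasp genes on chromosome X and are thought to have spread there by duplication, mostly in placental mammals. The adult brain is a main site of expression of both.

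Sequence around the genes' start sites was compared (RefSeq, build GRCm38.p6, 250 bases before to 50 after each start, found for 7 of the 8 genes). Windows were aligned in pairs without gaps, at the offset with the highest identity. Bex1 and Bex4, whose values differ most within the Bex family, had 288 of 294 aligned bases in common, the highest identity (98.0%) among the 21 pairs of Bex and Armcx windows. The next pair, Armcx1 and Armcx6, had 50.5%, so Bex1 and Bex4 were the only closely alike pair. Identity without gaps does not measure how far the other windows have diverged. The longest run shared by Bex1 and Bex4 was 271 bases. The 120 bases that follow are the same letters at both loci, at chrX:136215514-136215633 on the minus strand before Bex1 and at chrX:136138870-136138989 on the plus strand before Bex4. They are shown because this closest pair of windows belongs to the genes with the largest and the smallest Bex difference between fractions.

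Bex1 and Bex4: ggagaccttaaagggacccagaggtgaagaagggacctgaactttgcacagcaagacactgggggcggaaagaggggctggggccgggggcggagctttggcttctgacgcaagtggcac

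Bex2 shares its own start region with Bex3, a relative outside the 8 genes, with 84.8% of 263 aligned bases identical and a longest shared run of 162 bases. These 120 bases are identical at chrX:136068237-136068356 on the minus strand before Bex2 and at chrX:136270096-136270215 on the plus strand before Bex3, and are shown because Bex3 was not among the genes chosen and can be set beside Bex2.

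Bex2 and Bex3: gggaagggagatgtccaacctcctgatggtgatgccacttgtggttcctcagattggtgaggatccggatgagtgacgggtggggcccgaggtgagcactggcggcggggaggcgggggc

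A shorter arrangement recurs across the families. It consists of TGACG followed after 4 to 12 bases by CACGTG on the same strand, and was searched on both strands after the family's windows had been read, so its frequency among them is a description. It was present in 5 of the 7 windows of the 8 genes and in windows of 6 of their 14 relatives. Among all windows of the same length 56 of 32851 held it (0.17%), and 43 of 32826 (0.131%) with these genes and relatives left out. CACGTG alone, which reads the same on both strands, was in 7.15% of all windows and TGACG alone in 20.8%. The spacer was 7 or 9 bases in all 13 family windows that held the arrangement. These windows belong to 11 genes, since overlapping windows of Tceal3 repeat the same site, as do those of Tceal5. The sites below are written from 5′ to 3′ with the TGACG and CACGTG letters in capitals, and show how alike the genes are there.

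Bex1 (chrX:136215508-136215530, minus strand): tcTGACGcaagtggCACGTGact
Bex4 (chrX:136138973-136138995, plus strand): tcTGACGcaagtggCACGTGact
Armcx1 (chrX:134717921-134717943, plus strand): ggTGACGtgcccctCACGTGagc
Armcx4 (chrX:134686500-134686524, plus strand): gaTGACGcggagccccCACGTGacc
Armcx6 (chrX:134751437-134751459, minus strand): ggTGACGtggctgtCACGTGacc
Bex3, a relative (chrX:136270264-136270288, plus strand): agTGACGcagggccctCACGTGacc

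CACGTG began between 26 and 3 bases before the annotated start in the 5 genes, and 27 bases after it in Bex3. The Bex2 window held TGACG without CACGTG, and the Armcx2 window held neither. Genes with the arrangement ran from Armcx4, lowest of the 8 in IP relative to unbound RNA, to Bex4, the highest.

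Among the Bex genes, Bex4 (probe set 1428209_at), a protein linked to microtubules, differed most between fractions. Its values were 12.70, 12.30 and 12.30 in IP and 8.78, 8.54 and 8.65 in unbound RNA. All 3 IP arrays lay above all 3 unbound arrays with a gap of 3.52 between the nearest values. The means were 12.43 ± 0.23 and 8.65 ± 0.12 (SD, n = 3 each), a difference of 3.78 on the log2 scale or 13.7-fold. Only 51 of the tested genes (0.482%) had a larger increase.

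Bex2 (1417388_at), a family member studied in apoptosis and cell-cycle control, followed. It read 14.06, 14.04 and 14.04 in IP and 12.18, 12.25 and 12.37 in unbound RNA. The groups again did not overlap, and replicates lay much closer to each other than the groups did. The difference was 1.78, or 3.43-fold, and 358 tested genes (3.38%) had a larger one.

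Bex1 (1448595_a_at) was bright in both fractions. The IP arrays were at 15.52, 15.38 and 15.36, and the unbound arrays at 15.19, 14.91 and 14.98. The IP arrays were the higher ones, but by a gap of only 0.17 between the nearest values. The difference of means was 0.39 on the log2 scale (1.31-fold), against SDs of 0.09 in IP and 0.15 in unbound RNA. RefSeq lists "Bex1" as an older name of Bex2 and "Bex4" as an older name of Bex1, and the names here follow the gene identifiers of the annotation. The probes' own sequences were not analysed here, so hybridisation of one Bex transcript to the probes of another was not tested.

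Among the Armcx genes only Armcx6 (1434409_at) stood far apart between fractions. It was at 9.16, 9.18 and 9.28 in IP and at 5.35, 5.72 and 6.37 in unbound RNA. The IP arrays agreed closely, while the unbound arrays, just above the detection limit of 5, spread over a wider range than in any other of the 11 probe sets (SD 0.51). The difference was 3.39, or 10.5-fold, and ran from 2.91 to 3.81 when each IP sample was set against the unbound sample of its own number. Larger increases were found in 69 tested genes (0.652%).

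Armcx1 (1425914_a_at), known for promoting mitochondrial transport and axon regrowth, did not separate the fractions. The IP arrays were at 11.23, 11.07 and 11.07 and the unbound arrays at 11.37, 10.85 and 10.98, and the groups overlapped. The difference was 0.06, below the SD of either group (0.10 and 0.27), and was -0.05 without unbound replicate 2.

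Armcx2, also named ALEX2 for the loss of these genes in epithelial cancers, was read by 3 probe sets. The brightest, 1456739_x_at, was at 13.78, 13.49 and 13.49 in IP and at 13.76, 13.23 and 13.47 in unbound RNA, a difference of 0.10 with overlapping groups (-0.03 without unbound replicate 2). A second, 1437849_x_at, gave 0.19 and also overlapped. The third, 1415780_a_at, was at 11.28, 10.88 and 10.91 in IP and at 10.65, 10.31 and 10.61 in unbound RNA, with all IP arrays higher and a difference of 0.50. The suffix x marks probe sets with probes that may match other sequences, and the probe set without it had the largest of the 3 differences.

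Armcx3, the mitochondrial outer membrane protein that binds Miro and Trak, had probe sets of opposite sign. The brighter one, 1460359_at, was at 11.82, 11.46 and 11.46 in IP and at 12.33, 11.51 and 11.88 in unbound RNA, with overlapping groups and a difference of -0.33. The other, 1424373_at, was at 11.47, 11.08 and 11.35 in IP and at 10.76, 10.67 and 10.68 in unbound RNA. There the IP arrays were all higher, by 0.60 in the mean. The direction for Armcx3 therefore depends on the probe set, and the average of both gave 0.13.

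Armcx4 (1427167_at), the longest Armcx protein, was the 1 member with all IP arrays below all unbound arrays. It was at 9.13, 9.27 and 9.19 in IP and at 9.74, 9.73 and 10.05 in unbound RNA. The difference was -0.64, within 0.01 of the median change of all tested genes.

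**Figure D1:**
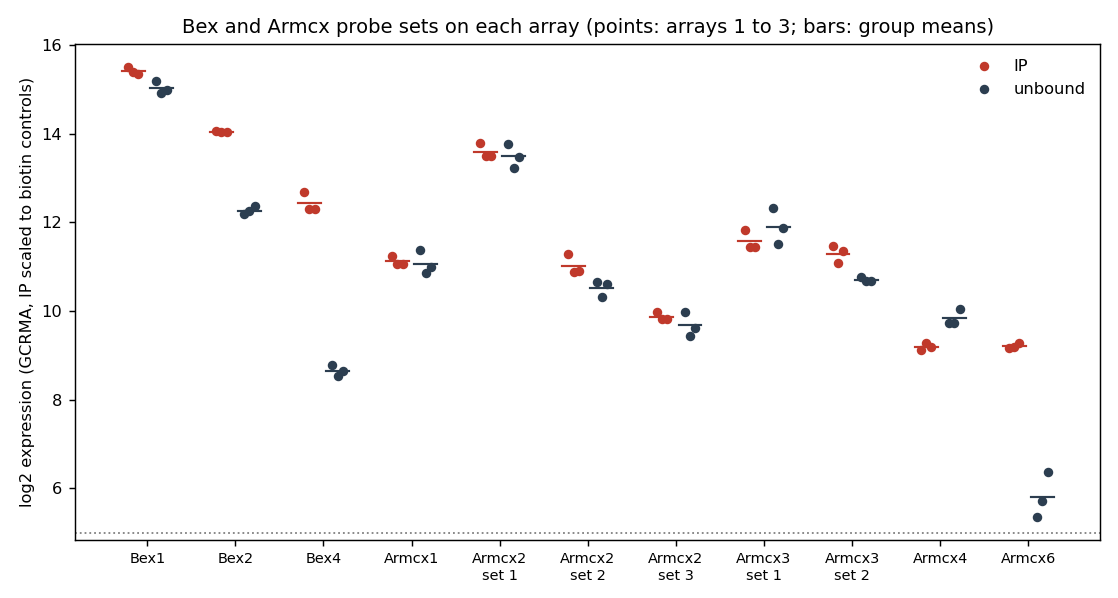
Log2 expression (vertical axis) of the 11 Bex and Armcx probe sets in 3 IP and 3 unbound arrays, with points for arrays and bars for group means; the dotted line is the detection limit of 5, and numbered sets of a gene run from the brightest. Bex2, Bex4 and Armcx6 show wide gaps between groups, and Armcx1 and the brightest sets of Armcx2 and Armcx3 overlap.

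By gene, each read by its brightest probe set, 3 of the 8 were called higher in IP and 0 lower (limma with Benjamini-Hochberg adjustment over all tested genes, adjusted p under 0.05 and at least 2-fold). Of all tested genes, 10.4% were called higher and 41.1% lower. Because the genes were chosen on this contrast, nothing is read from that comparison. Their median change was 0.24, beside -0.65 for all tested genes, and ranged from -0.64 to 3.78. Of the 11 probe sets, 6 had all IP arrays above all unbound arrays, 1 had them below and 4 overlapped. Counted by gene, 4 of the 8 were entirely above, 1 was entirely below and 3 overlapped. Of tested genes, 23.9% were entirely above and 59.1% entirely below.

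**Figure D2:**
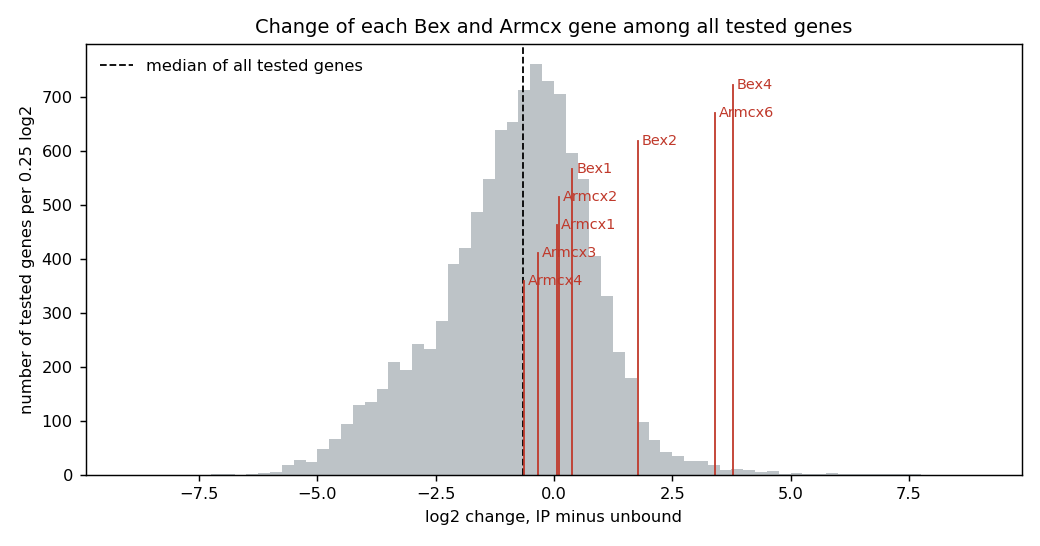
Histogram of the log2 change, IP minus unbound, of the 10581 tested genes in bins of log2 0.25 (vertical axis, number of genes), with a line for each Bex and Armcx gene and a dashed line at the median of -0.65. Bex4 (3.78) and Armcx6 (3.39) lie in the right tail, and Armcx4 (-0.64) lies on the median.

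How IP compares with unbound RNA rests on the scaling, so directions were read under 6 scalings. Bex4 and Armcx6 were higher in IP under all 6, from 1.10 to 4.80 and from 0.72 to 4.42. Bex2 was higher under 5, from 1.59 to 2.80, and was at -0.90 when IP was shifted to the poly-A spike controls, a scaling that put the median of all genes at -3.37. Bex1 and Armcx1 were positive under the same 5 and turned to -2.29 and -2.62 under the poly-A scaling. The brightest probe set of Armcx2 turned to -2.58 under it and to -0.21 under quantile normalisation. Armcx4 changed from -0.64 to 0.16 and 0.38 with arrays centred on their median over expressed and over all probe sets, and the brightest set of Armcx3 from -0.33 to 0.47 and 0.70. The second Armcx3 probe set was positive under all but the poly-A scaling (-2.08).

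Scalings that move all genes alike leave the distance to the median of all tested genes nearly fixed, and only quantile normalisation can change the order much. Bex4 lay 4.09 to 4.47 above that median, Armcx6 3.98 to 4.36 and Bex2 1.55 to 2.48 over the 6 scalings. Bex1 lay 0.98 to 1.09 above it except under quantile normalisation, where it lay 0.04 above. Armcx4 stayed between -0.18 and 0.06. Under quantile normalisation Armcx6 (4.36) was above Bex4 (4.09), the reverse of the order under the other 5 scalings.

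**Figure D3:**
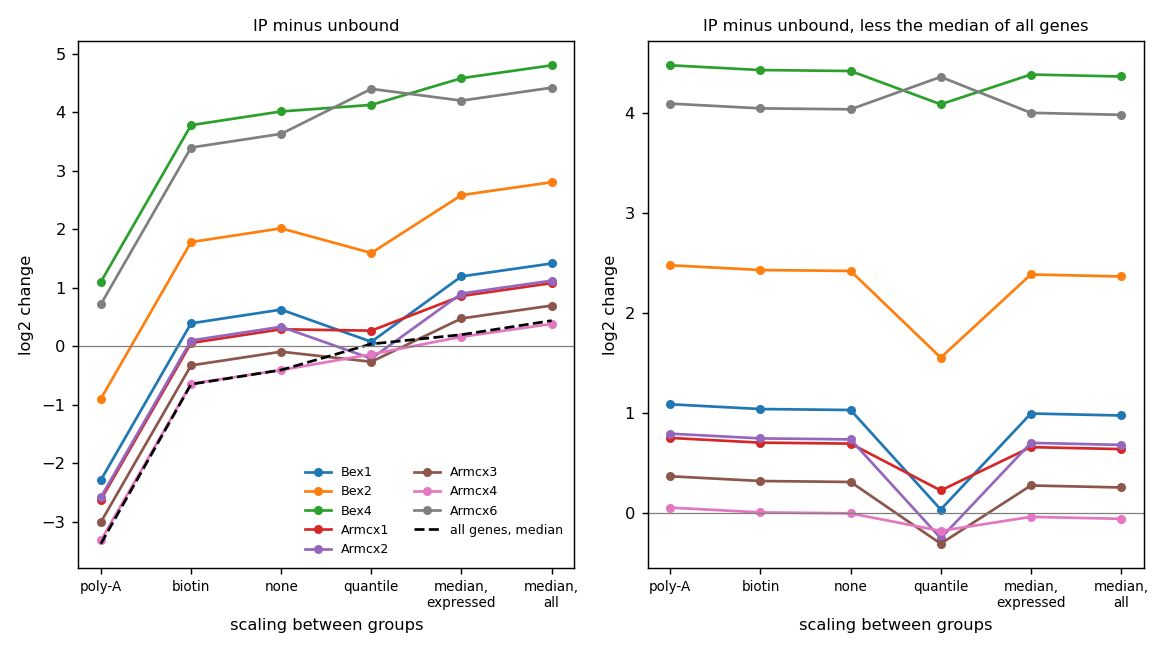
Log2 change, IP minus unbound (vertical axes), of the brightest probe set of each of the 8 genes under 6 scalings between groups; the right panel subtracts the median change of all tested genes (dashed line on the left). The left curves move together with the scaling, and on the right Bex4, Armcx6 and Bex2 remain above the other 5 genes.

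Identical values on different arrays of a group touch several of these readings. In 6 of the 11 probe sets, including Bex2 and Bex4, 2 of the 3 IP arrays held the same deposited value. At least 2 arrays did so in 46.1% of all probe sets averaging 5 or more in IP. None of the 11 had this in unbound RNA, where the share was 2.97%. The IP SDs of those 6 probe sets, 0.02 for Bex2 among them, thus rest on 2 distinct values each.

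Related genes were listed by family and position. Of 14 Bex, Tceal, Armcx and Gprasp relatives, 11 had a probe set of their own and 9 were tested. Of these 2 were called higher and 0 lower, against 10.4% and 41.1% of all tested genes. Their median change was 0.31, and 3 were higher and 1 was lower at an unadjusted limma p under 0.05. The calls were Bex3 and Tceal9. Bex3, the partner of the p75 receptor also named NADE, was at 14.25, 14.16 and 14.16 in IP and at 12.65, 12.57 and 12.64 in unbound RNA (log2 change 1.57 ± 0.07 SE, 2.97-fold, limma adjusted p = 5.96e-06). Tceal9, formerly named Wbp5 for binding a WW domain, was at 14.48, 14.48 and 14.49 in IP and at 13.21, 13.12 and 13.31 in unbound RNA (log2 change 1.27 ± 0.08 SE, 2.41-fold, adjusted p = 2.08e-05). In each of these genes 2 of the 3 IP arrays held the same deposited value, so the SEs and p-values rest on 2 distinct IP values. Both increases turned to decreases under the poly-A scaling (-1.11 and -1.41), and Tceal9 fell below 2-fold under quantile normalisation (0.97).

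The other tested relatives were not called. Tceal8 (log2 change 0.76, adjusted p = 0.0625) and Gprasp2, a sorting protein for G-protein-coupled receptors (0.31, adjusted p = 0.0779), had all IP arrays above the unbound ones. The gaps between the nearest values were only 7.04e-04 and 0.016. Armcx5 differed by 0.65 and Bhlhb9, also named Gprasp3, by -0.66, each past the adjusted p but under 2-fold (3.50e-04 and 0.00287). Armcx5 had the same value on all 3 IP arrays, and Gprasp2 and Bhlhb9 each on 2 of the 3. Tceal1 (-0.31), Gprasp1 (-0.12) and Armc10 (-0.03), an autosomal gene close to Armcx in sequence, overlapped between groups. Tceal7 lay under the detection limit in IP (4.90) and unbound RNA (2.77), and Bex6, on chromosome 16, was also below it in both groups.

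Along chromosome X, in the order of the RefSeq table, the 8 genes span 57 annotated genes from Armcx4 to Bex1, of which 22 had a probe set of their own. The 5 Armcx genes come first and adjoin each other with few genes between, and Armcx6 (3.39) lies between Armcx1 (0.06) and Armcx3 (-0.33). Bex2, Bex4 and Bex1 close the span in that order, with Tceal8 (0.76) next to Bex4 (3.78) among the measured genes. Of the 14 measured genes that are not among the 8, 6 were tested and 0 were called in either direction by limma. All of these 6 but Zmat1 (Armcx5, Bhlhb9, Gprasp1, Gprasp2 and Tceal8) are also among the relatives above, so the lists are not separate. Of all tested genes, 10.4% were called higher and 41.1% lower. At an unadjusted limma p under 0.05, 1 of the 6 was higher and 2 were lower. IP arrays lay entirely above unbound arrays in 3 of the 6 and entirely below in 2, against 23.9% and 59.1% of all tested genes. Tceal8 and Gprasp2 are among those 3, by the narrow gaps given above. The largest changes were those of Zmat1, a zinc-finger gene, at -0.93 (adjusted p = 0.00331) and Tceal8 at 0.76. The other 8 genes, among them Nxf2, Nxf3 and Nxf7, lay under the detection limit in both groups.

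**Figure D4:**
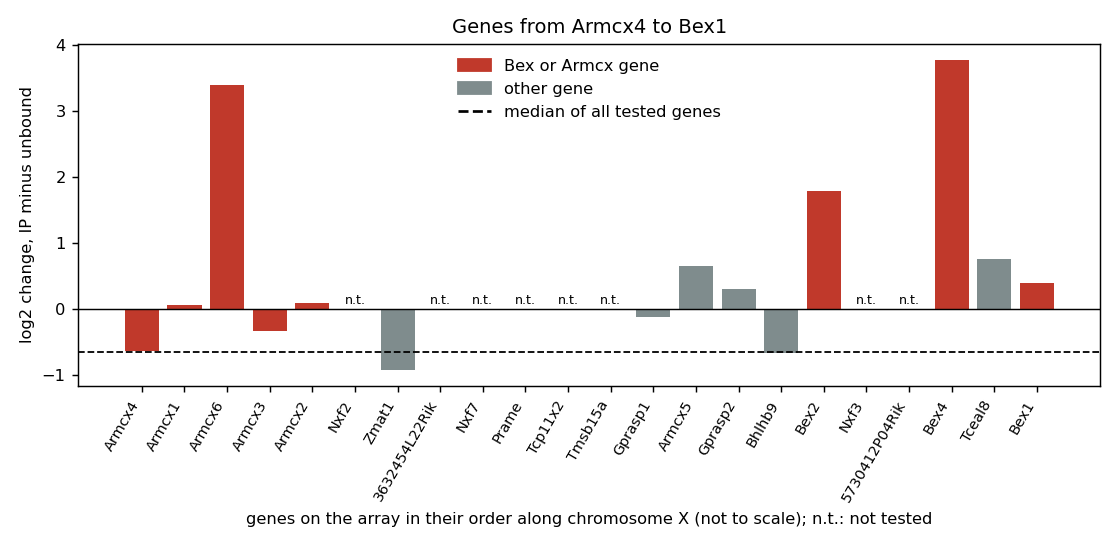
Log2 change, IP minus unbound (vertical axis), of the genes with a probe set of their own in their order along chromosome X from Armcx4 to Bex1, not to scale; red bars are Bex and Armcx genes, grey bars other genes, n.t. marks genes not tested and the dashed line is the median of all tested genes. High bars (Armcx6, Bex2 and Bex4) stand beside low ones.

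Armcx proteins act with the machinery that moves, fuses and divides mitochondria, and 16 of 19 listed genes of that machinery were tested. Of these 0 were called higher and 8 lower, against 10.4% and 41.1% of all tested genes. The median change was -1.05, and 1 was higher and 12 were lower at an unadjusted limma p under 0.05. Mfn1, a mitochondrial fusion GTPase, fell by 3.11 (8.61-fold lower, limma adjusted p = 8.93e-07), with the same value on 2 of the 3 IP arrays. Its change was -1.98 with averaged probe sets. The kinesin genes Kif5b (-2.40, adjusted p = 2.44e-05), Kif1b (-1.68, adjusted p = 1.11e-04) and Kif5c (-1.62, adjusted p = 5.74e-06) were also lower. The calls of Kif1b (-0.88 and -0.66) and Kif5c (-0.81 and -0.59) were lost with the median scalings, over expressed and over all probe sets, and that of Kif5c also with averaged probe sets (-0.98). All 4 genes stayed negative under all 6 scalings. The Miro genes Rhot1 (-0.83) and Rhot2 (-0.62) and the adaptor gene Trak1 (-0.58) were not called. Fis1, Mfn2, Klc1 and Mff were the only ones of the 16 whose change lay above that of the brightest Armcx3 probe set (-0.33). The other Armcx3 probe set (0.60) lay above all 16.

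Of 18 listed genes of p75 neurotrophin receptor signalling, 11 were tested. Of these 2 were called higher and 3 lower, against 10.4% and 41.1% of all tested genes, with a median change of -0.55. The receptor gene Ngfr itself was at 5.13 on each of 3 IP arrays and at 2.75 on each of 3 unbound arrays, at least 1.10-fold higher in IP when unbound arrays are counted at the detection limit. It passed the limit on low values through the IP arrays alone, so its call as higher was bound to that choice, and its 3 values per group are identical. The kinase gene Irak1 rose by 1.29 (adjusted p = 3.05e-04), with the same value on all 3 IP arrays, and turned to -1.39 under the poly-A scaling. The ligand gene Bdnf was at least 2.82-fold lower, but passed the limit through the unbound arrays alone, so its call as lower was bound to that choice too. It was lost under quantile normalisation (-0.95). The sorting receptor gene Sort1 (-1.09, adjusted p = 5.25e-05) and the adaptor gene Traf6 (-1.03, adjusted p = 0.00481) fell, each with the same value on 2 of the 3 IP arrays. Both calls were lost with no scaling (-0.86 and -0.79) and with quantile and median scalings, where Sort1 was at -0.47, -0.29 and -0.07 and Traf6 at 0.045, -0.23 and -0.01.

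Markers of other cell types give the setting of these values. Of 7 pan-neuronal markers 1 was called higher and 1 lower, against 10.4% and 41.1% of all tested genes. Their median change was -0.41, with a range from -1.88 to 1.47. Bex4, Bex2 and Armcx6 lay above that range and the other 5 genes within it. Summed astrocyte markers ranged over 11.2 to 11.4 on the IP arrays, with Aldh1l1 and Slc1a3 below the detection limit, and over 14.0 to 14.6 on the unbound ones. Oligodendrocyte sums ranged over 14.0 to 14.6 and 16.1 to 16.3. Microglial sums ranged over 6.98 to 7.01 and 10.0 to 10.3, with Cx3cr1 and C1qa below the limit in IP. All 4 endothelial markers were below it in IP, where their sum was 5.07, beside 7.92 to 8.19 for unbound RNA. Endothelial Pecam1 was below the limit in unbound RNA too and was not tested. The other markers below the limit in IP were tested through their unbound values alone, so their calls as lower were bound to that filter. Microglial Aif1, tested through its IP values alone, was called higher, at least 1.66-fold. The part of these shifts in the Bex and Armcx values was not tested.

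**Figure D5:**
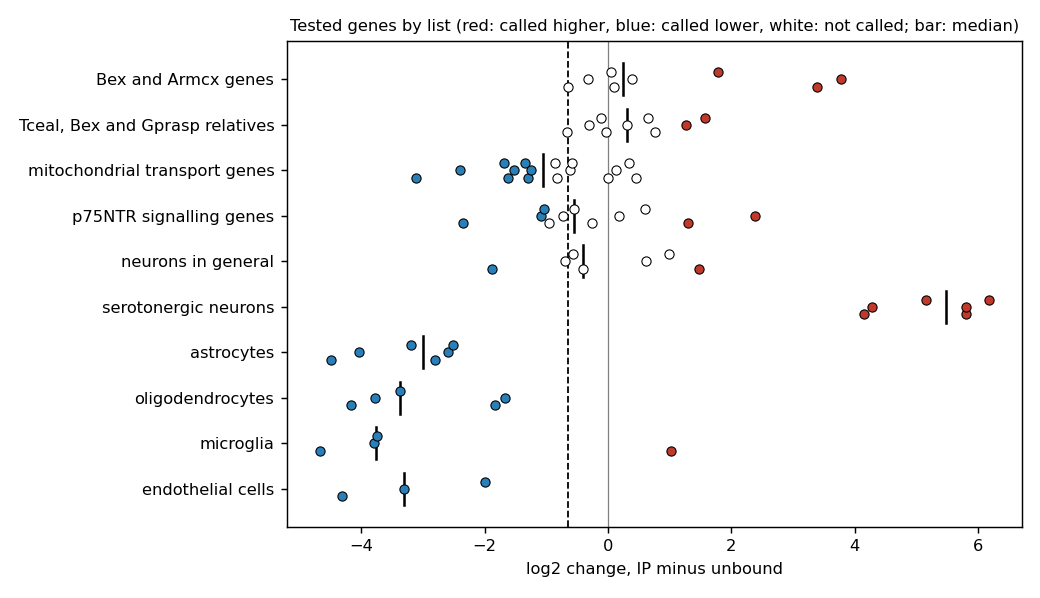
Log2 change, IP minus unbound (horizontal axis), of each tested gene by list, red where called higher, blue where called lower and white where not called, with a bar at the list median; the dashed line is the median of all tested genes (-0.65). The Bex and Armcx genes spread from -0.64 to 3.78, with most glial markers below them and the microglial Aif1 (1.02) within that range.

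Genes with the most similar pattern over the 6 arrays were found by root mean square distance between values centred on each gene's mean. The nearest to Bex4 were Fndc9 (distance 0.117) and Tmem232 (0.144), and to Armcx6 they were Igha (0.0947) and Amz1 (0.102). Bex2 lay nearest to Prtn3 (0.0411) and Ebpl (0.0419), and Bex1 to Grpel1 (0.0350) and Cox6c (0.0369). Armcx1 lay nearest to Tsg101 (0.0285) and Bloc1s6 (0.0390), and Armcx2 to Thoc7 (0.0291) and Vamp4 (0.0404). Armcx3 lay nearest to Rab39b (0.0524) and Cul3 (0.0596), and Armcx4 to Hp1bp3 (0.0371) and Ube2e3 (0.0432). Some distances grew with the processing. Under quantile normalisation Bex2 lay 0.75 from Prtn3 and 0.30 from Ebpl, Bex1 0.18 from Grpel1 and Armcx4 0.25 from Ube2e3. With averaged probe sets Bex2 lay 0.51 from Ebpl, and Armcx4 0.23 from Hp1bp3 and 0.34 from Ube2e3. With 2 groups of 3 arrays, a small distance says mainly that the change between groups has a similar size.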

How the data were processed

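Each of the 6 arrays (3 IP, 3 unbound) used 20 ng of total RNA, per the labels' protocols. Log2 values as deposited were made by the authors with GCRMA within each group of replicates, per the submitters' processing notes and the series' design text; version and annotation release are not given in the sources used here. The log2 scale was read from the values. Genes were named from the platform annotation (34958 probe sets with 1 symbol, 932 with several, the latter not used). All 11 member probe sets matched a RefSeq entry by gene identifier with the same symbol.

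IP values were scaled to the biotin controls, each gene was read by its brightest probe set, and genes reaching log2 5 on at least 3 of 6 arrays were fitted with limma 3.58.1 (R 4.3.3) on group, two-sided, adjusted over all tested genes. The fit was run on simulated data with independent normal noise. These held no repeated values and no separate normalisation of groups, so they cannot show how either affects the calls. A summed marker level is the log2 of the sum of linear values. The members, lists and alternatives were chosen with earlier results of these data known. Genes named are all members, of each other list up to 4 called genes per direction (otherwise 2 by size), and the 2 nearest genes per member; other list members were named after their values were seen. Alternatives were 5 other scalings, filters, averaged probe sets, a replicate block and leaving out each array. IP and unbound samples of 1 number, which each label ties to a replicate, deviated together (correlations 0.27, 0.16 and 0.10, the bound being 0.1). However, IP replicate 3 correlated more with unbound replicate 2 (0.21). The numbers were taken as pairs in the replicate block and in the differences by sample number given for Armcx6. The main fit, which gave the printed SEs and p-values, was on group alone and did not use the pairs.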

Additional observations from a re-analysis of the deposited data

How the results depend on the processing

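The count of Bex and Armcx genes called higher (3) and lower (0) held with no scaling, quantile normalisation, either changed filter, averaged probe sets, the replicate block (3 and 0) and without any 1 array. The median over expressed probe sets gave 4 higher, that over all probe sets gave 6, and the poly-A controls gave 1 higher, 5 lower. The replicate block changed none of the list counts: relatives 2 and 0, mitochondrial genes 0 and 8, p75 genes 2 and 3, genes between the members 0 and 0.

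Counts on the other lists moved with the scaling. Relatives called higher were 4 under quantile normalisation, 6 with each median scaling and 0 under the poly-A scaling, which called 9 lower. Genes between the members called higher were 2 under quantile normalisation and 3 with each median scaling, 6 were lower under the poly-A scaling, and 1 was higher with no filter. Mitochondrial genes called higher were 1 under quantile normalisation, 2 with the median over expressed probe sets and 4 with that over all, 2 were lower with each median scaling and 16 under the poly-A scaling. For p75 genes, 1 was lower with no scaling, 0 under quantile normalisation and 1 with each median scaling; 4 were higher with the median over all probe sets; the poly-A scaling called 0 higher and 10 lower; a filter at log2 7 left 1 higher and 1 lower, and averaged probe sets left 1 higher. Leaving out 1 array gave 1 to 2 p75 genes higher and 1 to 4 lower, and 0 to 1 genes between the members lower. The filter needs 3 arrays, so Ngfr was not tested without any 1 IP array and Bdnf not without any 1 unbound array. Without unbound replicate 1 Traf6 (-0.81) was not called either, which left 1 p75 gene lower. Without unbound replicate 2 Zmat1 was called lower at -1.06. Without each array in turn, 8 to 9 mitochondrial genes were lower.

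The sign turns of Bex1, Armcx1, Armcx2, Armcx3 and Armcx4 stand beside their values above. Among other genes and Bex2, signs turned for Armc10 and Gprasp1 with no scaling (0.21 and 0.12), for Armc10 (0.85) and Traf6 (0.045) under quantile normalisation, and for Tceal1 (0.49), Armc10 (0.77), Gprasp1 (0.69) and Bhlhb9 (0.14) with the median over expressed probe sets. With the median over all probe sets they turned for Tceal1 (0.71), Armc10 (0.99), Gprasp1 (0.91), Bhlhb9 (0.36) and Zmat1 (0.10). Under the poly-A scaling they turned for Bex2 (-0.90), Bex3 (-1.11), Tceal9 (-1.41), Tceal8 (-1.92), Armcx5 (-2.03), Gprasp2 (-2.37) and Irak1 (-1.39). Armc10 also turned without IP replicate 2 (0.08) and without unbound replicate 3 (0.14), and ranged from -0.16 to 0.14 without each array in turn. These scalings moved the median change of tested genes from -0.65 to -0.41 (none), 0.04 (quantile), 0.20 and 0.44 (medians over expressed and all probe sets) and -3.37 (poly-A), and lower genes from 79.8% of all calls to 71.4%, 49.7%, 46.2%, 36.7% and 99.7%. The cause of the difference between the control sets was not tested. Signal near the detection limit bounds what can be said of Armcx6 in unbound RNA, Tceal7 and Ngfr.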

Other observations

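One probe set, annotated to Tceal3, Tceal5 and Tceal6 together and so assigned to none of these 3 genes, was at 10.72, 10.59 and 10.35 in IP and at 9.65, 9.95 and 9.95 in unbound RNA. All IP arrays were above all unbound arrays, by 0.70 in the mean. In 9 of the 11 Bex and Armcx probe sets the IP sample of replicate 1 had the highest value of its group, and in 8 the unbound sample of replicate 1 did so too.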
